A study of Mus musculus with 54 samples.

Results

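Sox18 and 9 other genes of the endothelium were followed through the hearts and livers of mice whose mitochondrial ribosomes make more or fewer mistakes. The 10 genes were selected by name, and they were picked because Sox18 was higher in Mrps12ha/ha hearts. They are the SoxF transcription factors Sox18, Sox17 and Sox7, the receptors Kdr, Flt1, Tek and Tie1, the ETS factor Erg, and the junction genes Cdh5 and Pecam1. They are 10 of the 54356 genes listed for each tissue. Genes that averaged 10 normalized counts or more over the 9 mice were tested, 16057 in heart and 15314 in liver, and all 10 members reached that level in both tissues.

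The mice carried wild-type Mrps12 (Mrps12+/+), the error-prone change on both copies (Mrps12ep/ep) or the hyper-accurate change on both copies (Mrps12ha/ha). Mrps12 encodes a protein of the small mitochondrial ribosomal subunit, and both changes are in the germline, so that every cell type carries them. All mice were C57BL/6 males of 20 weeks, and all, Mrps12+/+ included, had been fed a high-fat diet with 42% of its energy as fat, so that no comparison here is between diets. RNA came from whole hearts and livers of 3 mice of each genotype, and the labels do not say which heart and liver came from the same mouse.

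Blood vessels are lined by endothelial cells. The SoxF factors bind DNA through an HMG box, act in arterial and lymphatic specification and overlap in function. Kdr and Flt1 encode receptors for VEGF, Tek encodes the receptor for the angiopoietins and Tie1 its partner, and Cdh5 and Pecam1 encode adhesion proteins at the junctions between endothelial cells. In the adult heart many of these transcripts come from the capillaries between the muscle cells, and in the liver many come from the sinusoids. In RNA of a whole organ, a change in the number of endothelial cells and a change in RNA per cell cannot be told apart.

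Hearts held 11202866 to 51480271 reads on genes and livers 21238039 to 81518239. The shallowest heart was that of Mrps12ha/ha mouse 2, where 1 read was worth 3.02 normalized counts. A member was covered by 211 to 17219 reads in a heart and by 33 to 2354 reads in a liver. Markers of ventricular muscle summed to at least 2321000 normalized counts in every heart and markers of hepatocytes to at least 5286000 in every liver, as the tissue labels require. Mrps12 itself had a mean of 1078 ± 67.9 normalized counts in Mrps12+/+, 1161 ± 117 in Mrps12ep/ep and 1271 ± 165 in Mrps12ha/ha hearts (SD, n = 3), and its transcript level cannot check the genotypes, which differ in its coding sequence. One mouse of each tissue stood apart in the members, Mrps12ha/ha heart 2 and Mrps12+/+ liver 3, and the medians over the members and over the endothelial lists are given with and without them.

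Compared per kilobase of exon, Cdh5 was the most abundant member in Mrps12+/+ hearts, at 2230 ± 329 normalized counts per kilobase (SD, n = 3), followed by Pecam1 at 1203 ± 19.2. Sox18 at 884 ± 196, Tie1 at 863 ± 151 and Kdr at 719 ± 167 lay within one another's spread. Flt1 at 512 ± 86.2 overlapped Kdr above it and Tek below it, which stood at 433 ± 50.8. Erg at 334 ± 43.9 and Sox7 at 262 ± 61.2 overlapped each other, and Sox17 at 152 ± 43.2 was the lowest, so that Sox18 was the most abundant SoxF transcript of the wild-type heart. Mrps12+/+ livers, normalized on their own, had the same genes at both ends of the order, with Cdh5 at 269 ± 113 and Sox17 at 18.6 ± 4.32 normalized counts per kilobase. Sox18 in these livers, at 106 ± 44.5, lay within the spread of Pecam1 at 138 ± 51.3, Kdr at 122.7 ± 61.4 and Tie1 at 98.0 ± 35.5. In both tissues the order rests on the union of exons, which for some members exceeds the longest transcript. The union was 13504 bases for Flt1, 9030 for Kdr and 6228 for Pecam1, against longest transcripts of 6895, 5924 and 3441. For Sox18 both lengths were 1620 bases. Per kilobase of transcript, Flt1, Kdr and Pecam1 would therefore stand higher beside Sox18 than given here.

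Sox18 (ENSMUSG00000046470.5) lies on the minus strand of chromosome 2 at chr2:181669836-181671640 in GRCm38, Sox17 (ENSMUSG00000025902.13) at chr1:4490931-4497354 and Sox7 (ENSMUSG00000063060.6) at chr14:63943673-63950732. The 2 VEGF receptor genes share chromosome 5, Kdr at chr5:75932827-75978458 and Flt1 at chr5:147561604-147726011, and Tek at chr4:94739289-94874976 and Tie1 at chr4:118471191-118490061 share chromosome 4. Of the members, Sox17 alone shares exon bases with another annotated gene, 804 bases with Gm37587 on the opposite strand, which reached at most 2.0 normalized counts in any heart. RefSeq promoter sequences (GRCm38.p6) were at hand for 5 of the 10 members, Kdr, Flt1, Tek, Tie1 and Erg. The 250 bases before the start of the VEGF receptor genes and of Tek are printed 5′ to 3′ on the gene's strand. Their fitted differences between the hearts were of unequal size with overlapping confidence intervals, and differences between the genes were not tested. Capitals mark GGAA on either strand (TTCC on the other), the core of the sites that ETS factors such as Erg bind.
Kdr, chr5:75978456-75978705, minus strand: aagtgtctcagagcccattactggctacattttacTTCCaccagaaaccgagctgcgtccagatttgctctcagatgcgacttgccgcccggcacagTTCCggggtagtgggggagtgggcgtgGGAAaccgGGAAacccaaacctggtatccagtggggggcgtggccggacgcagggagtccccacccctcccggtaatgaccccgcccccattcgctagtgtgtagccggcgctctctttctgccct
Flt1, chr5:147726012-147726261, minus strand: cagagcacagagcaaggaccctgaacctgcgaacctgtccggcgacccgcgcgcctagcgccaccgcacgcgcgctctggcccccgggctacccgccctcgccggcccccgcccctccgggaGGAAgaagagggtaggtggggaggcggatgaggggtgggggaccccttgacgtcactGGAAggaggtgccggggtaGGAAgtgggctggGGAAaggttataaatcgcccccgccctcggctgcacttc
Tek, chr4:94739039-94739288, plus strand: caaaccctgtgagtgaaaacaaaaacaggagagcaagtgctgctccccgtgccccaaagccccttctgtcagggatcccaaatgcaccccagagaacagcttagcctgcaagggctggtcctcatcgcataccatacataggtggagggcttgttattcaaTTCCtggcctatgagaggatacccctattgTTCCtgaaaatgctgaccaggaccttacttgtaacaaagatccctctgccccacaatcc
The core occurred 4 times before Kdr, 4 times before Flt1, 2 times before Tek and 7 times before Tie1, where the median of 32851 mouse promoters was 3 and 93.4% held at least 1, so that its presence separates these genes from few others. Of 2 SOX core words searched on both strands, AACAAT and ACAAAG, each occurred 1 time before Tek and neither occurred in the windows of Kdr, Flt1 and Tie1. Erg has 3 starts in RefSeq, whose windows held the ETS core 2, 4 and 0 times, and AACAAT occurred 1 time before the first of these, at chr16:95459349-95459598. Among all promoters 9.4% held AACAAT and 16.5% held ACAAAG. These are matches of letters and not evidence of binding.

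In the hearts, Sox18 was higher in Mrps12ha/ha than in Mrps12+/+ mice, with 4280, 2102 and 5069 normalized counts in mice 1, 2 and 3 against 1782.5, 1349 and 1163. The Mrps12ep/ep hearts held 2588.5, 1358 and 1867. Every Mrps12ha/ha heart was above every Mrps12+/+ heart, but mouse 2 was below Mrps12ep/ep mouse 1. On the scale of log2(normalized count + 1) the difference from Mrps12+/+ was 1.34 ± 0.34 (SE), or 2.53-fold. This difference is why the genes were picked, and it is described here without a test, as are the other differences of these hearts.

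Sox7, which can stand in for Sox18 in vessels, had 2327, 1471 and 2225 normalized counts in Mrps12ha/ha hearts against 1050, 891 and 649 in Mrps12+/+ and 1613, 1119 and 1322 in Mrps12ep/ep hearts. Its Mrps12ha/ha hearts also all lay above its Mrps12+/+ hearts, with a log2 difference of 1.22 ± 0.23 (SE). Sox17, a factor of arterial endothelium, had 1478, 637 and 1908 in Mrps12ha/ha, 589, 620 and 961 in Mrps12+/+ and 735, 573 and 619 in Mrps12ep/ep hearts. Here mouse 2 lay among the Mrps12+/+ hearts, and the log2 difference was 0.78 ± 0.36 (SE).

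The VEGF receptors were higher by less. Kdr, the main signalling receptor for VEGF-A, had 12119.5, 7876 and 9775 normalized counts in Mrps12ha/ha hearts against 7976, 6531 and 4956 in Mrps12+/+ and 9311, 6030 and 8399 in Mrps12ep/ep hearts, and its log2 difference from Mrps12+/+ was 0.62 ± 0.23 (SE). Mouse 2 fell just under the highest Mrps12+/+ heart. Flt1, which also binds VEGF and can act as a decoy, had 9638, 7695 and 11676 in Mrps12ha/ha hearts against 7902, 5633 and 7224 in Mrps12+/+ and 7815, 5263 and 7685 in Mrps12ep/ep hearts. The Mrps12ha/ha and Mrps12+/+ hearts overlapped through mouse 2, with a log2 difference of 0.48 ± 0.21 (SE).

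Both Tie receptors were higher, Tie1 by the larger value, and the difference between them was not tested. Tie1 had 7374, 4488 and 7355 normalized counts in Mrps12ha/ha hearts against 5100, 3842 and 3782 in Mrps12+/+ and 5385, 4211 and 4511 in Mrps12ep/ep hearts, a log2 difference from Mrps12+/+ of 0.57 ± 0.21 (SE). Mice 1 and 3 were above every Mrps12+/+ and Mrps12ep/ep heart and mouse 2 was not. Tek had 2675, 2069 and 2506 in Mrps12ha/ha hearts against 2310, 1952 and 1857 in Mrps12+/+ and 2339, 2645 and 2228 in Mrps12ep/ep hearts, and its log2 difference of 0.24 ± 0.14 (SE) was the smallest of the 10. Erg, which keeps endothelial identity genes active, had 1911, 1114 and 1456 in Mrps12ha/ha hearts against 1335, 1075 and 1068 in Mrps12+/+ and 1497, 1293 and 1398 in Mrps12ep/ep hearts, 0.34 ± 0.19 (SE) above Mrps12+/+ on the log2 scale.

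The junction genes were higher by amounts like that of Erg. Cdh5, the cadherin of endothelial junctions, had 15488, 9885 and 11908 normalized counts in Mrps12ha/ha hearts against 10932, 8886.5 and 8296 in Mrps12+/+ and 12129, 9937 and 10250.2 in Mrps12ep/ep hearts, a log2 difference from Mrps12+/+ of 0.39 ± 0.18 (SE). Pecam1 had 10752, 7327 and 9994 in Mrps12ha/ha hearts against 7446, 7399 and 7625 in Mrps12+/+ and 8833, 9486 and 7940 in Mrps12ep/ep hearts, a log2 difference of 0.30 ± 0.15 (SE). Its Mrps12+/+ hearts lay close together, and Mrps12ha/ha mouse 2 lay below all 3 of them.

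**Figure D1:**
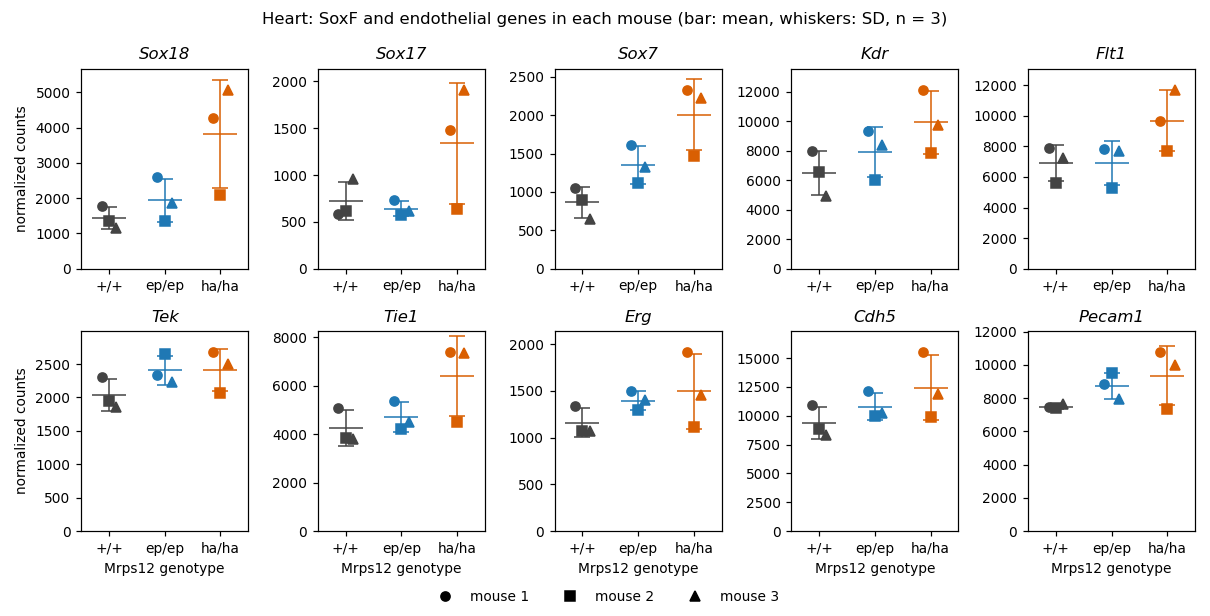
Normalized counts (vertical axes, from 0) of the 10 genes in each heart, by genotype, with the mean as a bar and the SD as whiskers (n = 3). Mrps12ha/ha mice 1 and 3 lie above all Mrps12+/+ hearts in 10 of 10 genes, and mouse 2 does so in 2, Sox18 and Sox7. Over all genes these shares are 37.7% and 37.0% for mice 1 and 3 and 27.8% for mouse 2.

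Across the 10 genes the median log2 difference between Mrps12ha/ha and Mrps12+/+ hearts was 0.52, against -0.02 over all 16057 genes tested. All 10 differences were above 0, and in 2 of 10, Sox18 and Sox7, the mice did not overlap. Over all genes tested, 11.1% had all Mrps12ha/ha hearts above all Mrps12+/+ hearts and 10.0% had all of them below, and nothing is read from the count of members, since this contrast picked them. By mouse, Mrps12ha/ha hearts 1 and 3 exceeded every Mrps12+/+ heart in 10 of 10 members, where 37.7% and 37.0% of all genes did so, with median folds over Mrps12+/+ of 1.71 and 1.62. In mouse 2, with the fewest reads, the median fold was 1.07 and 2 of 10 members were above every Mrps12+/+ heart, where 27.8% of all genes were. Without mouse 2 the median log2 difference was 0.70, that of Sox18 1.72 and that of Tek 0.35. Against Mrps12ep/ep hearts the median was 0.37, with 0.93 for Sox18, 0.93 for Sox17 and 0.003 for Tek. It was 0.56 without Mrps12ha/ha mouse 2, 0.23 without Mrps12ha/ha mouse 1 and 0.22 without Mrps12ep/ep mouse 2. Without Mrps12ha/ha mouse 1, 7 of 10 members were higher, with Erg at -0.13, Tek at -0.07 and Pecam1 at -0.03. The mice overlapped in all 10 members there, while 8.77% of all genes had every Mrps12ha/ha heart above every Mrps12ep/ep heart.

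Set against the other members of the same heart, Sox18 and Sox7 stood higher in Mrps12ha/ha than in Mrps12+/+ hearts, which restates in part how the genes were picked. Sox18 less the mean log2 level of the 7 members that are not Sox genes was -0.69, -1.14 and -0.30 in Mrps12ha/ha hearts against -1.49, -1.60 and -1.79 in Mrps12+/+ and -1.08, -1.76 and -1.41 in Mrps12ep/ep hearts, with group means of -0.71 ± 0.42, -1.63 ± 0.15 and -1.42 ± 0.34 (SD, n = 3). Mrps12ha/ha mouse 2 stood above all 3 Mrps12+/+ hearts and below Mrps12ep/ep mouse 1. For Sox7 the Mrps12ha/ha hearts were tightly grouped, at -1.57 ± 0.08 against -2.36 ± 0.23 in Mrps12+/+ and -1.90 ± 0.14 in Mrps12ep/ep hearts. For Sox17 the groups overlapped, at -2.26 ± 0.58 in Mrps12ha/ha, -2.63 ± 0.52 in Mrps12+/+ and -2.96 ± 0.06 in Mrps12ep/ep hearts.

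The genes whose level over the 9 hearts was most like that of Sox18 were Pdgfb (Pearson's r = 0.978 of the log2 values), Ggta1 (0.977), Ccs (0.977), Ctnnbip1 (0.976), Cdc42ep1 (0.976) and Pde2a (0.976). Pdgfb encodes the growth factor by which endothelium attracts pericytes, and it had 3470, 2045 and 3533 normalized counts in Mrps12ha/ha hearts against 1816, 1860 and 1383 in Mrps12+/+ hearts. Among the members, Tie1 (r = 0.969, rank 28 of 16056 genes) and Sox7 (0.944, rank 121) were most like Sox18 and Tek was least like it (0.620, rank 3250). These correlations describe 9 hearts that share the differences between the genotypes and between the libraries.

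Other endothelial genes were counted in lists. Over all tested genes 11.1% had every Mrps12ha/ha heart above every Mrps12+/+ heart and 10.0% had every one below. The counts of the lists are descriptions, since this contrast picked the members. Of 30 genes of the endothelial surface and junctions, 27 were higher in Mrps12ha/ha than in Mrps12+/+ hearts and 8 had mice that did not overlap, all of them above, with a median log2 difference of 0.35. Egfl7, a protein secreted by endothelium, had 9820, 4264 and 7919 normalized counts in Mrps12ha/ha hearts against 3294, 3121 and 2912 in Mrps12+/+ hearts. Clec14a was 1.72-fold higher. Of 15 heart capillary genes 14 were higher and 5 did not overlap, with a median of 0.61. Tcf15, a factor of heart capillaries, had 946, 432 and 864 against 351, 288 and 298, and the glycerol channel Aqp7 was 1.74-fold higher. Mouse 2 was again the lowest of the Mrps12ha/ha hearts in Egfl7, Clec14a, Tcf15 and Aqp7. Without it the medians were 0.50 for the surface and junction genes and 0.77 for the capillary genes, and 20 of 30 and 12 of 15 lay above every Mrps12+/+ heart, where 28.3% of all genes then did.

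Genes of Notch signalling, which acts with SoxF in arteries, were mostly higher as well. Of 10 Notch genes 9 were higher, with a median log2 difference of 0.63. In 5 the mice did not overlap, all above, where 11.1% of all tested genes lay so. The Notch effector Hey1, a transcription factor, had 1141, 664 and 1465 normalized counts in Mrps12ha/ha hearts against 544, 459 and 490.5 in Mrps12+/+ hearts, 2.08-fold higher. The ligands Dll1 and Dll4 were 1.79-fold and 1.73-fold higher. Of 14 arterial genes 10 were higher, with a median of 0.28, and of 8 tested genes proposed as targets of Sox18 or SoxF, Dll4 among them, 5 were higher, with a median of 0.38. The lists share genes, so their counts are not independent. Dll4 is in the Notch, arterial and target lists, Hey1 in the Notch and arterial lists, and Eng in the ALK1-endoglin and surface lists. In the ALK1-endoglin BMP pathway 8 of 12 were higher with a median of 0.25, where Id1, a direct BMP target, was 1.84-fold and the co-receptor Eng 1.52-fold higher. Of 19 further endothelial transcription factors 13 were higher, with a median of 0.26. In 4 all Mrps12ha/ha hearts lay above, Hhex by 2.01-fold and Ets1 by 1.54-fold among them. In 1 they lay below, Mef2c, a factor shared with muscle, with 1500.2, 1761 and 1227 normalized counts against 2094, 2423 and 1789, which is named here after its values were seen. Of the 8 other Sox genes tested 5 were higher, with only Sox13 free of overlap, at 1.60-fold.

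Not all vascular genes followed. In the angiopoietin-Tie list 5 of 7 were lower in Mrps12ha/ha hearts, with a median log2 difference of -0.33. Angpt1, the ligand of Tek, had 416, 1039 and 413 normalized counts in Mrps12ha/ha hearts against 1133, 2497 and 1913 in Mrps12+/+ hearts, 0.32 of their level. The Mrps12ep/ep hearts held 975, 5819 and 2180, and mouse 1 lay below Mrps12ha/ha mouse 2. In Mrps12+/+ and Mrps12ep/ep hearts Angpt1 was lowest in mouse 1, as were the atrial genes described below. Among Mrps12ha/ha hearts mouse 2, the lowest in atrial genes, was the highest in Angpt1. The part of atrial tissue in Angpt1 was not tested. Tns3 was at 0.57 of the level in Mrps12+/+ hearts. Among lymphatic genes 8 of 10 were lower, with a median of -0.50, where Mmrn1 was at 0.53 and Pdpn at 0.63 of the level in Mrps12+/+ hearts, although Sox18 is known for its part in lymphatic vessels. Of the VEGF ligands and co-receptors Vegfd was at 0.75 and Vegfb at 1.13 of it, with a median of 0.22 over 8 genes. The venous and endocardial list had a median of -0.15, with Ackr1 2.14-fold higher at a low level (9.2, 12.1 and 14.5 against 2.6, 7.8 and 5.7) and Tmem108 at 0.62. The hypoxia and shear list had a median of -0.13, with Edn1 1.90-fold and Nos3 1.47-fold higher. Without Mrps12ha/ha mouse 2 the medians were 0.81 for the Notch, 0.52 for the arterial, 0.58 for the proposed target, 0.43 for the ALK1-endoglin, 0.35 for the transcription factor, 0.35 for the other Sox and 0.28 for the VEGF list, and -0.45 for the angiopoietin-Tie, -0.56 for the lymphatic, -0.08 for the venous and -0.04 for the hypoxia and shear list.

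Markers of other cell types differed between these hearts too. None of the atrial or erythroid markers was at 0 in all mice of a genotype. The 8 atrial markers summed to 5705 to 12050 normalized counts in Mrps12ha/ha hearts, to 8955 to 173300 in Mrps12+/+ and to 2454 to 403500 in Mrps12ep/ep hearts. The mean log2 difference of the atrial list from the Mrps12+/+ mean was -3.90 in Mrps12+/+ mouse 1 and -4.66 in Mrps12ep/ep mouse 1. Those 2 hearts also had the highest Sox18, Kdr and Tie1 of their genotype, but not all members followed. Mrps12+/+ mouse 1 was above both other Mrps12+/+ hearts in 8 of 10 members and lowest in Sox17, at 589 normalized counts. Mrps12ep/ep mouse 1 was the highest of its genotype in all members but Tek and Pecam1. These were highest in Mrps12ep/ep mouse 2, at 2645 and 9486, where the atrial list stood at 3.91. In Mrps12ha/ha hearts the atrial list stood at -2.82, -3.56 and -2.09, and there mouse 2, the lowest in atrial genes, was also the lowest in Sox18, Kdr and Tie1. Nppa, an atrial hormone, was lower in all 3 Mrps12ha/ha hearts, at 4582, 4180 and 3885 against 7983, 78294 and 54983.
The 7 erythroid markers summed to 199400 to 1413000 in Mrps12ha/ha hearts against 91930 to 235800 in Mrps12+/+ hearts, and all 7 were higher, Alas2 by 3.81-fold. By mouse the erythroid list stood at 1.60, 0.52 and 3.33 in log2 in Mrps12ha/ha hearts, so that mouse 2 was the lowest here as well. Of 10 fibroblast genes 8 were lower in Mrps12ha/ha hearts, with a median of -0.25, Postn at 0.64 and Col1a2 at 0.80 of the level in Mrps12+/+ hearts. The 12 pericyte and smooth muscle genes had a median of -0.01, with Kcnj8 1.39-fold and Pdgfrb 1.26-fold higher, and 9 macrophage genes a median of 0.06. In the ventricular muscle list the median was 0.02, while Ryr2 had 16285, 44622 and 19113 normalized counts against 47154, 51018 and 53594 in Mrps12+/+ hearts and Myl2 was 1.30-fold higher. Genes of the liver sinusoid had a median of -0.05 in hearts, with Rspo3, at 0.0 to 20.8 normalized counts in these 6 hearts, and Maf lower. The 9 hepatocyte genes summed to 2776 to 16730 normalized counts in Mrps12ha/ha and to 5499 to 16500 in Mrps12+/+ hearts. The part of these cell types in the values of the members was not tested.

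**Figure D2:**
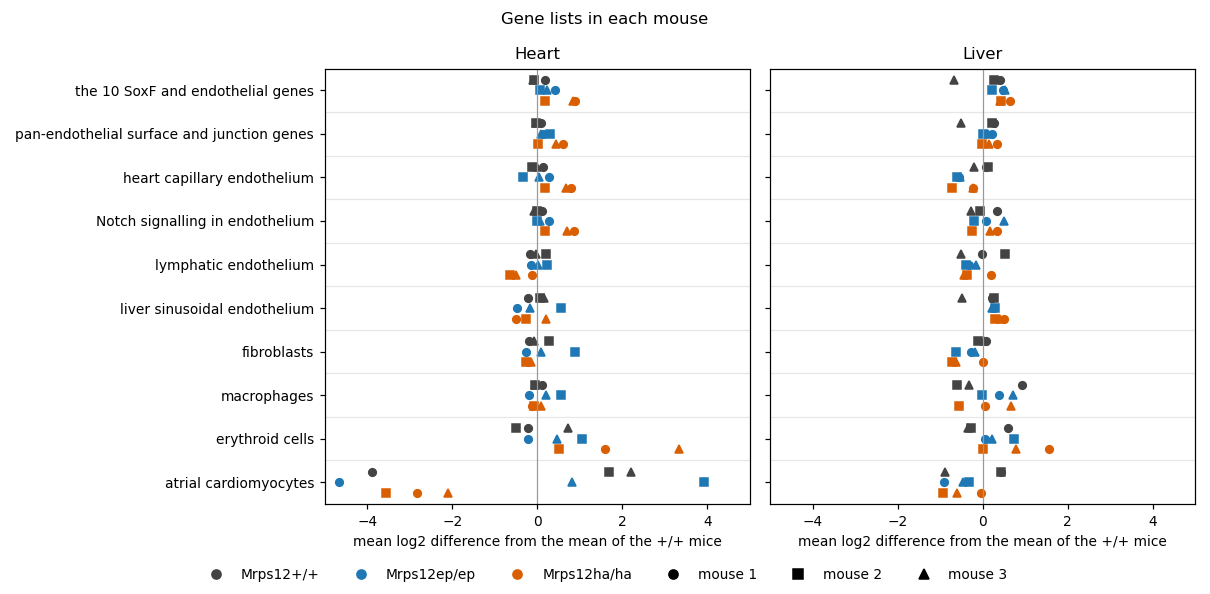
Mean log2 difference from the mean of the Mrps12+/+ mice (horizontal axes) of 10 gene lists in each heart and liver, one symbol for each mouse and one colour for each genotype. Mrps12ha/ha heart 2 (orange square) lies nearer to 0 than mice 1 and 3 in the members, the capillary list and the Notch list, and Mrps12+/+ liver 3 (black triangle) lies low in the members, at -0.67.

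The Mrps12ha/ha hearts with high members also differed from Mrps12+/+ across all genes by base composition. In the 4014 genes with the highest GC content of the transcript the median log2 difference from the Mrps12+/+ mean was 0.15 in mouse 1 and 0.20 in mouse 3, and in the 4015 with the lowest GC content it was -0.15 and -0.19. In mouse 2 these medians were 0.01 and -0.0035. Short genes were likewise higher than long ones, with medians of 0.15 and 0.175 in the 4017 shortest and -0.13 and -0.13 in the 4013 longest in mice 1 and 3. The transcript of Sox18 is short, 1620 bases, and 60.9% of it is G or C, above 97.4% of the tested heart genes. Tie1 had 57.6% and Tek 47.1%, while Sox7 with 51.0% and 3299 bases lay near the middle. When these trends were subtracted from each mouse, the log2 difference of Sox18 between Mrps12ha/ha and Mrps12+/+ hearts was 1.08 in place of 1.34, that of Sox7 was 1.26 and the median of the 10 genes was 0.53. Beyond that, the part of base composition and of depth in these values was not tested.

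**Figure D3:**
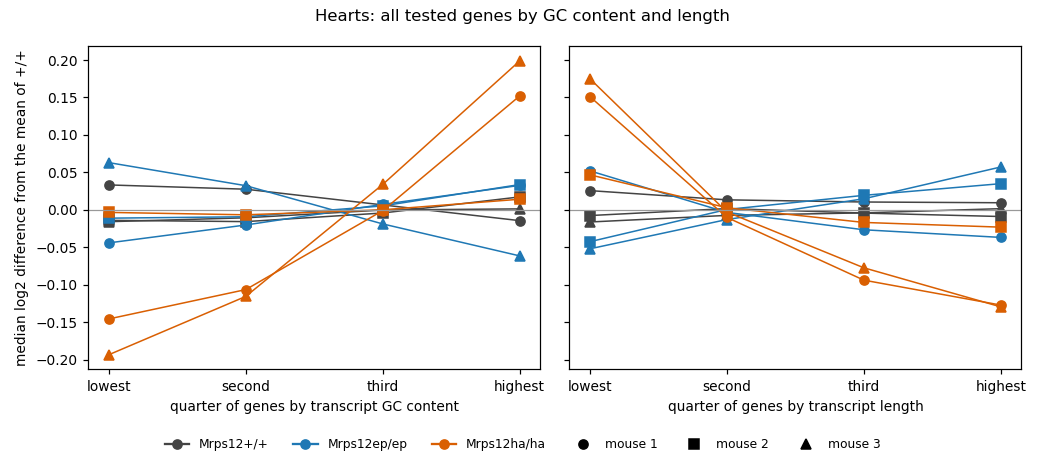
Median log2 difference from the mean of the Mrps12+/+ hearts (vertical axis) of all tested heart genes, in 4 groups of about equal size by transcript GC content (left) and transcript length (right), one line for each heart. Mrps12ha/ha mice 1 and 3 climb from -0.15 and -0.19 to 0.15 and 0.20 with GC content, and mouse 2 stays close to 0.

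Whether the error-prone change moved the same genes in the heart could be tested, with the remark that the Mrps12+/+ hearts are those of the comparison that picked the genes. None of the 10 members passed an adjusted p of 0.05 in limma's fit, where 0 of 16057 genes did (0.0%), and 271 genes, 1 of them a member (Sox7), had an unadjusted p under 0.05. By limma-voom 2 genes passed, neither of them a member. Sox7 had the largest log2 difference of the members, 0.66 with a 95% confidence interval of 0.14 to 1.179, and Pecam1 0.22 (-0.12 to 0.56), and in these 2 of 10 the mice did not overlap, where 4.4% of all genes had every Mrps12ep/ep heart above every Mrps12+/+ heart. Sox18 differed by 0.41 (-0.36 to 1.175), Kdr by 0.29 (-0.23 to 0.81) and Flt1 by -0.01 (-0.48 to 0.47). The adjusted p of each of the 10 was 1.0 by limma. The median was 0.23 with 8 of 10 higher, against -0.01 over all genes. With a mouse left out it ranged from 0.15 (without Mrps12+/+ mouse 3) to 0.33 (without Mrps12+/+ mouse 1). Sox17 was the lowest of the members, at -0.14 (-0.96 to 0.67). In the 30 surface and junction genes 27 were higher and none was called, with a median of 0.14, and no gene of any list was called. Of the gene lists, the heart capillary genes had a median of 0.0045 and the Notch genes one of 0.14 here.

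In the livers, Sox18 had 352, 234 and 256 normalized counts in Mrps12ha/ha mice against 211, 215 and 88.0 in Mrps12+/+ and 201, 165 and 342 in Mrps12ep/ep mice. All Mrps12ha/ha livers lay above all Mrps12+/+ livers, with a log2 difference of 0.80 ± 0.39 (SE) and an adjusted p of 0.391 in limma's fit, which did not pass. Sox7 had 145, 155 and 99.8 against 102, 96.2 and 53.8 in Mrps12+/+ livers, a log2 difference of 0.69 with a 95% confidence interval of 0.0015 to 1.38 and an adjusted p of 0.352, the lowest of the 10. Its groups overlapped through Mrps12ha/ha mouse 3. Sox17 had 126, 98.3 and 108 against 103, 98.7 and 65.2, a log2 difference of 0.34 (adjusted p = 0.564 by limma).

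The receptors showed the same low Mrps12+/+ mouse. Kdr had 1585, 1545 and 1456 normalized counts in Mrps12ha/ha livers against 1375, 1477 and 470 in Mrps12+/+ and 1478, 1171 and 1305 in Mrps12ep/ep livers. The first 2 Mrps12+/+ livers were near the mutants and the third was not. Tie1 had 838, 629 and 606 in Mrps12ha/ha against 605, 558 and 282 in Mrps12+/+ livers, with no overlap and a log2 difference of 0.58 (-0.03 to 1.19; adjusted p = 0.378 by limma). Tek had 428, 519 and 412 in Mrps12ha/ha, 430, 428 and 205 in Mrps12+/+ and 563, 455 and 513 in Mrps12ep/ep livers. Flt1 showed the smallest difference of Mrps12ha/ha livers, 0.22 (-0.46 to 0.91). Erg, with 364, 268 and 257 against 254, 237 and 172, was the third member whose Mrps12ha/ha and Mrps12+/+ livers did not overlap, with a log2 difference of 0.42 (adjusted p = 0.381 by limma). Cdh5 and Pecam1 differed by 0.39 and 0.48, and their groups overlapped.

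**Figure D4:**
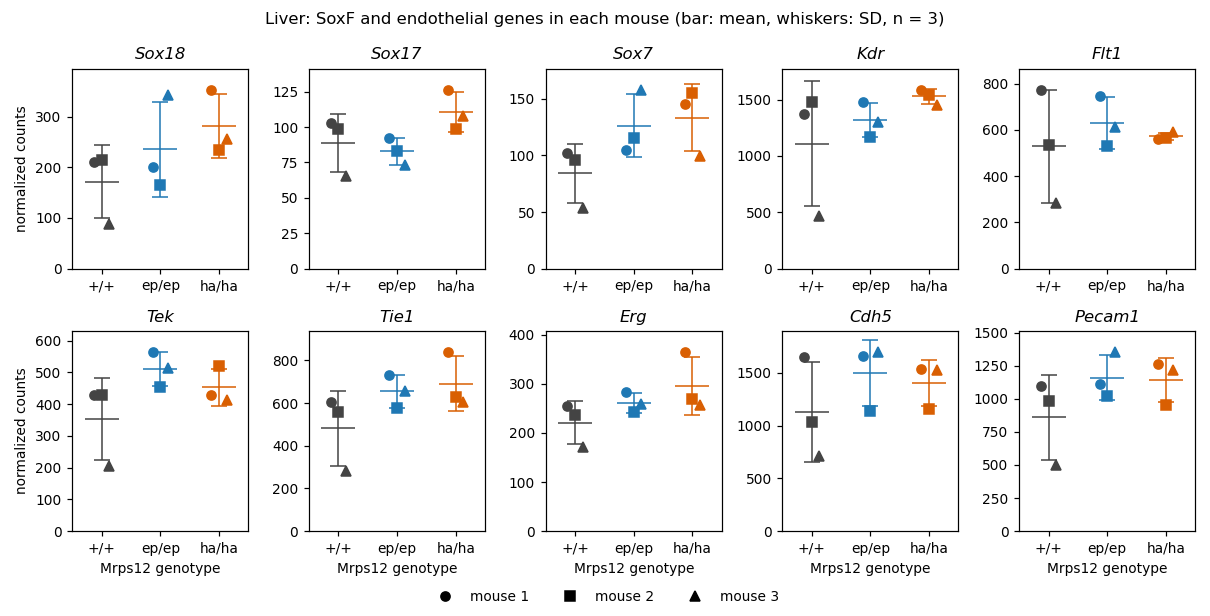
Normalized counts (vertical axes, from 0) of the 10 genes in each liver, by genotype, with the mean as a bar and the SD as whiskers (n = 3). Mrps12+/+ mouse 3 (triangle) is the lowest of its genotype in 10 of 10 genes, and the remaining Mrps12+/+ livers lie close to the mutant livers.

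None of the 10 members was called between Mrps12ha/ha and Mrps12+/+ livers, where 1 of 15314 genes was (0.00653%). In limma's fit 1 member of 10, Sox7, had an unadjusted p under 0.05, as had 2163 of the 15314 genes. Limma-voom called none of the members in any of the liver comparisons. All 10 differences were above 0 with a median of 0.45, and in 3 of 10 every Mrps12ha/ha liver was above every Mrps12+/+ liver, where 10.0% of all genes lay so and 9.81% lay below. The size of the median rested on Mrps12+/+ mouse 3. Without it the same count of 3 of 10 did not overlap, where 14.3% of all genes then lay above and 15.2% below. Then 9 of 10 were higher, but the median was 0.13, Flt1 was at -0.17 and Sox18 at 0.37, and the lowest adjusted p was 0.635 by limma. That mouse was also low in other lists, by a mean log2 difference from its group of -0.50 over 30 surface and junction genes, -0.49 over 16 sinusoidal genes and -0.47 over 12 pericyte and smooth muscle genes. It was not low over 10 fibroblast genes, at 0.03, 7 VEGF genes, at 0.15, or 13 ALK1-endoglin genes, at -0.0057. Over 10 macrophage and 7 erythroid genes it stood at -0.32 and -0.34, but Mrps12+/+ mouse 2 was low there too, at -0.61 and -0.27. The 9 hepatocyte genes differed by -0.05. The part of these cell types was not tested.

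Between Mrps12ep/ep and Mrps12+/+ livers none of the 10 members was called either, where 1 of 15314 genes was (0.00653%). In limma's fit no member had an unadjusted p under 0.05, where 1491 of the 15314 genes had. The members' median was 0.48, with 9 of 10 higher. In 2 of 10, Sox7 at 0.61 (-0.07 to 1.30) and Tek at 0.60 (-0.0026 to 1.20), every Mrps12ep/ep liver lay above every Mrps12+/+ liver, where 6.49% of all genes did. Tek had the lowest adjusted p of the members, 0.512 by limma. Without Mrps12+/+ mouse 3 the median was 0.12 and 7 of 10 were higher. Sox17 was the only member under 0 with all mice, at -0.08 (-0.62 to 0.46; adjusted p = 0.939 by limma). It was at 0.0406 without Mrps12+/+ mouse 1 and at -0.28 without Mrps12+/+ mouse 3.

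The mutants were also compared with each other in the liver, where that mouse takes no part in the difference. The median of the 10 was 0.07, with 6 higher and 4 lower in Mrps12ha/ha. None was called by limma, where 1 of 15314 genes was (0.00653%). None had an unadjusted p under 0.05 in that fit either, where 1320 of the 15314 genes had. Leaving out a mouse moved that median between -0.04 (without Mrps12ha/ha mouse 1) and 0.20 (without Mrps12ha/ha mouse 3), and it was 0.0015 and 0.13 without Mrps12ep/ep mouse 2 and 3 and 0.115 without Mrps12ha/ha mouse 2. Sox17 differed most, by 0.41 (-0.13 to 0.95; adjusted p = 0.690 by limma), and was the 1 member of 10 with every Mrps12ha/ha liver above every Mrps12ep/ep liver, where 8.82% of all genes were. Sox18 differed by 0.30 with a confidence interval of -0.57 to 1.16, which does not leave out a doubling. The interval of Erg, -0.28 to 0.61, was the narrowest.

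**Figure D5:**
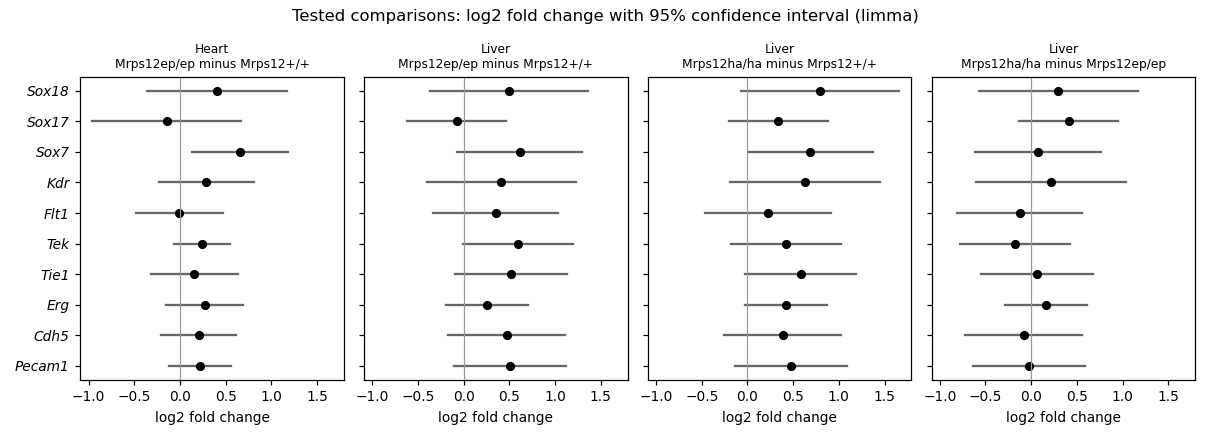
Log2 fold change (horizontal axes) of the 10 genes in the 4 comparisons that were tested, as points with 95% confidence intervals from limma. Only Sox7, in Mrps12ep/ep hearts (0.14 to 1.179) and in Mrps12ha/ha against Mrps12+/+ livers (0.0015 to 1.38), has an interval above 0, and none passed the adjusted p of 0.05.

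The other liver lists gave no call. Of 16 sinusoidal genes 14 were higher in Mrps12ha/ha than in Mrps12+/+ livers, with a median log2 difference of 0.44. In 6 the mice did not overlap, all above, where 10.0% of all genes lay so. In Mrps12ep/ep livers 16 of 16 were higher, with a median of 0.24, and 2 did not overlap, where 6.49% of all genes lay above. Without Mrps12+/+ mouse 3, 12 of 16 were higher in Mrps12ha/ha livers with a median of 0.17 and 9 of 16 in Mrps12ep/ep livers with a median of 0.03, so that the latter count rested on that mouse. Of 30 surface and junction genes 22 were higher in Mrps12ha/ha livers, with a median of 0.19, and without that mouse 15 were higher and 15 lower, with a median of 0.02. Heart capillary genes had a median of -0.36 in Mrps12ha/ha livers, or -0.27 without that mouse, where Aqp7 held 7.1, 4.1 and 5.2 normalized counts against 20.3, 26.7 and 36.7. Hey1, 2.08-fold higher in Mrps12ha/ha hearts, held 45.2, 24.6 and 47.8 in Mrps12ha/ha livers against 43.4, 20.2 and 27.7, with overlapping groups. The genes most like Sox18 over the 9 livers were Zfp433 (r = 0.983), Tfpi (0.951), Fam174b (0.949), Rbm4b (0.942), Rhobtb2 (0.942) and Mapk8ip1 (0.941). Tfpi, an endothelial inhibitor of coagulation, had 397.5, 338 and 352.5 normalized counts in Mrps12ha/ha livers against 322, 281 and 168. None of these 6 was among the 6 of the heart. Of the members Pecam1 (r = 0.919) was most like Sox18 in the liver and Sox17 (0.619) least.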

How the data were processed

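RNA-seq of hearts and livers from 9 mice was used, 54 libraries in all, which are 3 technical repeats per mouse and organ. The authors trimmed reads (Trim Galore 0.4.1, cutadapt 1.18, FastQC 0.11.8), quantified GENCODE vM21 transcripts (GRCm38.p6) with Salmon 1.1.0 and deposited DESeq2-normalized counts per gene, scaled within each tissue, with mitochondrial transcripts left out. The deposited values have 1 column per mouse and organ, treated as its technical repeats pooled, and their values of up to 100 reads were whole multiples of 1 step per column (100.0% in each, within the rounding of 0.05 normalized counts plus 0.02 reads), which gave the reads. The study's supporting methods state that independent biological replicates were pooled. Each deposited column carries the number shared by the technical repeats of 1 mouse and organ, and was therefore taken as 1 mouse. The n = 3, the standard errors and the p-values given here rest on that reading. The authors' tables of fold changes and p-values were not used.

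Genes averaging 10 or more were fitted by limma 3.58.1 (R 4.3.3; lmFit, then eBayes with a trend) on log2(normalized count + 1), the 3 genotypes of an organ together. Benjamini-Hochberg adjustment ran over every tested gene of the organ at a threshold of 0.05. The p-values rest on the spread between mice of the same genotype, pooled over the 9 mice of an organ and moderated across genes. Fold changes are 2 to the power of the fitted difference and understate those of low genes. Differences of Mrps12ha/ha hearts were only described, since they picked the genes. The fit was tested on simulated counts. Heart and liver were normalized separately and were not tested against each other. Levels per kilobase used the union of a gene's exons. Python 3.11.15 with pandas 2.3.3 and numpy 2.4.6 did the rest.

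The members and the 21 gene lists were chosen with earlier results of these data known. From the lists were named, besides any gene called in a tested comparison (there was none), up to 2 genes each with the largest difference between Mrps12ha/ha and Mrps12+/+ hearts whose mice did not overlap, and in each tissue the 6 genes most like Sox18. A gene that this rule names is not reported here. Alternatives were pseudocounts of 0.1 and 8, no filter, a mean of at least 50, quantile normalization, TMM scaling, only the 2 genotypes compared, a block on the replicate number, array weights, and each mouse left out. Limma-voom on the recovered reads and a correction for GC content and length in 20 bins each, and lists without the mouse that stood apart in its organ, were added after seeing the data.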

Additional observations from a re-analysis of the deposited data

Results flagged for a closer look

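Aqp7, an aquaglyceroporin of capillaries and fat, differed in opposite directions in the 2 tissues between Mrps12ha/ha and Mrps12+/+ mice. Every Mrps12ha/ha heart lay above every Mrps12+/+ heart, with a log2 difference of 0.80, and every Mrps12ha/ha liver lay below every Mrps12+/+ liver, with a log2 difference of -2.15 at levels of 4.1 to 36.7 normalized counts. The liver difference did not pass (adjusted p = 0.286 by limma). It was not particular to Mrps12ha/ha, since the Mrps12ep/ep livers, at 1.6, 8.7 and 0.0, also all lay below the Mrps12+/+ livers. In hearts the Mrps12ep/ep and Mrps12+/+ mice overlapped. The difference between the tissues was not tested. None of the 10 SoxF and endothelial genes differed in opposite directions without overlap of the mice in any of the 3 comparisons. With overlap some had opposite signs. Between Mrps12ha/ha and Mrps12ep/ep mice Flt1 differed by 0.48 in hearts and -0.13 in livers, and Tek, Cdh5 and Pecam1 by less in hearts. Between Mrps12ep/ep and Mrps12+/+ mice Flt1 differed by -0.01 and 0.35.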

How the results depend on the processing

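In the 4 tested comparisons the number of members called was 0 under each alternative that was run and with each mouse left out, and it was also 0 with the replicate number as a block. The labels do not say whether the numbers pair the mice, and correlations among 3 mice per genotype cannot decide it. The deviations of same-numbered mice correlated by -0.23 to 0.58 in hearts and by -0.13 to 0.16 in livers, and 2 of 9 pairs exceeded 0.1 in each tissue. These were Mrps12+/+ with Mrps12ep/ep mice 1 and 2, at 0.58 and 0.41 in hearts and 0.16 and 0.13 in livers. Of 18 comparisons of a mouse with another genotype, 6 in hearts and 5 in livers gave the best correlation with the mouse of its own number. The block moved the genes called in livers from 1 to 6 to 9 of 15314. The median log2 difference of the members between Mrps12ha/ha and Mrps12+/+ hearts ranged from 0.43 to 0.70 as each mouse was left out. The planned edgeR and DESeq2 fits on whole reads were not run here, and limma-voom took their place after the data were seen. No member passed the threshold under any of these settings, but some small differences changed sign. Flt1 in Mrps12ep/ep against Mrps12+/+ hearts was at 0.0167 with quantile normalization, 0.19 with array weights and 0.0063 with limma-voom. Sox17 in Mrps12ep/ep against Mrps12+/+ livers was at 0.0201 with quantile normalization, and with array weights Sox7 was at -0.0509 and Tie1 at -0.0142 between Mrps12ha/ha and Mrps12ep/ep livers. With each mouse left out, Mrps12ep/ep against Mrps12+/+ hearts ranged from -0.15 to 0.18 for Flt1 and from -0.27 to 0.0798 for Sox17. Mrps12ep/ep against Mrps12+/+ livers ranged from -0.0422 to 0.68 for Flt1, from -0.12 to 0.71 for Kdr and from -0.28 to 0.0406 for Sox17. Mrps12ha/ha against Mrps12+/+ livers ranged from -0.17 to 0.55 for Flt1. Between Mrps12ha/ha and Mrps12ep/ep livers the ranges were -0.27 to 0.0536 for Cdh5, -0.24 to 0.0058 for Flt1, -0.11 to 0.10 for Pecam1, -0.044 to 0.27 for Sox7 and -0.0807 to 0.15 for Tie1. Between Mrps12ha/ha and Mrps12ep/ep hearts, which were not tested, they were -0.13 to 0.26 for Erg, -0.03 to 0.25 for Pecam1 and -0.07 to 0.11 for Tek. The causes were not tested. In Mrps12ha/ha against Mrps12+/+ hearts array weights raised the genes called from 5 to 5573 of 16057, and leaving out Mrps12ha/ha mouse 2 raised them to 4330. Against Mrps12ep/ep hearts these counts were 6314 and 3730, in place of 4. Between Mrps12ha/ha and Mrps12+/+ livers the genes called went from 1 of 15314 to 76 without Mrps12+/+ mouse 3, 90 without mouse 2 and 6 without mouse 1, and between Mrps12ep/ep and Mrps12+/+ livers from 1 to 68, 1 and 26. With 3 mice in each group and reads of a member down to 33 in a liver, small differences could not be detected.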
